A study of Mus musculus with 2 samples.

Results

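The 8 genes Mtor, Rptor, Rictor, Tsc1, Tsc2, Depdc5, Nprl3 and Rheb of the mTOR pathway, several of which carry mutations in human epilepsies, were examined in nuclei of the mouse hippocampal field CA1. They were chosen by symbol among the 30431 genes of the count matrices, and each symbol matched 1 row. The series holds 1 library from epileptic and 1 from control mice, profiled nucleus by nucleus in droplets. Every captured RNA molecule is counted once, by its unique molecular identifier (UMI). Epileptic mice were male C57BL/6J animals carrying Calb1::Cre and a Tdtomato reporter, and at 6 to 7 weeks of age they received hourly injections of kainate (5 mg/kg) until status epilepticus, which was stopped with diazepam (4 mg/kg). Control mice had the same sex, strain, alleles and age and received vehicle, either saline or DMSO. Dorsal CA1 was dissected from both groups 12 weeks later, in the chronic phase of epilepsy, and its nuclei were sorted. In these mice the Calb1 gene drives Cre, which turns on the reporter, and the labels do not say that the sort used the reporter. The labels name 2 mice per condition but not whether a library holds 1 or both.

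The mTOR kinase joins inputs from growth factors, amino acids and energy supply to protein synthesis and cell growth. It works in a Raptor-containing complex, mTORC1, and a Rictor-containing complex, mTORC2. The small GTPase Rheb switches mTORC1 on, the TSC1-TSC2 complex switches Rheb off, and the GATOR1 complex, which contains DEPDC5 and NPRL3, restrains mTORC1 when amino acids are scarce. Loss of TSC1, TSC2, DEPDC5 or NPRL3 in human brain is known from tuberous sclerosis and focal epilepsies, and activating mutations of MTOR and RHEB from cortical malformations with seizures.

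The promoters of Rheb, Tsc1 and Tsc2, the genes of the switch directly above mTORC1 on which most of the results below turn, are shown first. Each sequence covers 250 bases before and 50 bases from the RefSeq transcription start (RefSeq, GRCm38.p6) and reads 5′ to 3′ on the strand of the gene. Capitals mark 1 of 4 short motifs searched on both strands, namely CACGTG (an E-box), CCGGAAG (an ETS-type motif), ATGGCGGC (a YY1-type motif) and TGACGTCA (the cAMP response element). The Rheb window is chr5:24842312-24842611 on the minus strand, the Tsc1 window chr2:28640983-28641282 on the plus strand and the Tsc2 window chr17:24632578-24632877 on the minus strand.
Rheb: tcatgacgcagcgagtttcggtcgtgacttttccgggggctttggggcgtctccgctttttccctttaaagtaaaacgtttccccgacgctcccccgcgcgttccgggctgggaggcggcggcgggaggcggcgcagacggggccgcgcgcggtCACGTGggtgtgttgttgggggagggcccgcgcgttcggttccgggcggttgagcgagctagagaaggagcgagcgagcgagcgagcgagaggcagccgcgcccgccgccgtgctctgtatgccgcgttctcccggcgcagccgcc
Tsc1: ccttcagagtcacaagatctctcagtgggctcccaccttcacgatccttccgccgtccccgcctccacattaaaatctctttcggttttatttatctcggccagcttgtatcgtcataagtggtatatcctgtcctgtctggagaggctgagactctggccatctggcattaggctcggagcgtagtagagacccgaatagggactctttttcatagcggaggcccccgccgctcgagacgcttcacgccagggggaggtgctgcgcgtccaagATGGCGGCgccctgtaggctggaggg
Tsc2: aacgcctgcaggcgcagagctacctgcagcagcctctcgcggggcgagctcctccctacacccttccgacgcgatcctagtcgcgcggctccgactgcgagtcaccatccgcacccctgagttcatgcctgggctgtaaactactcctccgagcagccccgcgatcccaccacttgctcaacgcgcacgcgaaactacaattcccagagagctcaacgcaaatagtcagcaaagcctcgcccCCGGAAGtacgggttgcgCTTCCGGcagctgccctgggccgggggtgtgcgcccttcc
The Rheb window held an E-box that begins 96 bases before the RefSeq start. The whole Rheb window lies inside the gene bounds given below (chr5:24802823-24842624), which come from GENCODE. The sources thus place the start of Rheb differently, and the E-box lies upstream only of the RefSeq start. The Tsc1 window held a YY1-type motif beginning at base 25 of the transcript, and the Tsc2 window an ETS-type motif on each side of the start, at 8 bases before it and at base 11 after it. Among 32851 mouse promoter windows of the same length, 7.15% held the E-box, 8.86% the ETS-type motif, 2.24% the YY1-type motif and 1.79% the cAMP response element. Mtor shared the ETS-type motif and Rictor the YY1-type motif, while the cAMP response element was in none of the 8 windows. These matches describe letters, not binding sites, and the motifs did not overlap one another.

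In GRCm38 the genes lie at chr4:148448611-148557683 (Mtor, plus strand), chr11:119602905-119899576 (Rptor, plus), chr15:6708379-6800401 (Rictor, plus), chr2:28641228-28691167 (Tsc1, plus), chr17:24595816-24632630 (Tsc2, minus), chr5:32863701-32994236 (Depdc5, plus), chr11:32225628-32267707 (Nprl3, minus) and chr5:24802823-24842624 (Rheb, minus). Tsc2 overlaps Pkd1, Nprl3 overlaps Mpg, Mtor overlaps Angptl7 and Rptor overlaps Rptoros and Gm11761, each on the opposite strand. The sources used here do not state whether strand was used in counting, so reads of a gene and of its partner cannot be told apart. Small genes on the same strand lie within Mtor, Rptor, Depdc5 and Rheb.

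The epilepsy library held 3078 nuclei with 7112131 UMIs and the control library 3661 nuclei with 11858162 UMIs, and 16 barcodes occurred in both. After removal of the highest doublet scores, 2986 epilepsy and 3551 control nuclei remained. Clusters were built without the 8 genes and the other pathway genes, and named from marker genes. CA1 pyramidal-like nuclei numbered 2245 in the epilepsy and 2756 in the control library, so the labelled tissue was dominated by its defining cell type but also held other classes. Of these, 480 epilepsy and 655 control nuclei were deep-like (Ndst4, Col11a1 and Nr4a2). Another 849 epilepsy and 1053 control nuclei were superficial-like (Calb1, Epha3 and Syt17), and 916 epilepsy and 1048 control nuclei met neither rule. Each rule needed every marker of its sublayer higher, every marker of the other lower, and Ndst4 past 2-fold. A cluster led by Tesc (381 epilepsy and 443 control nuclei) met neither, but missed the superficial rule only by Epha3 (log2 fold -0.07 against the remaining pyramidal nuclei). Interneuron-like nuclei numbered 144 in the epilepsy and 196 in the control library, and oligodendrocyte-like nuclei 259 in the epilepsy and 174 in the control library. Levels are given as CPM, a gene's UMIs scaled to the same total in every class. With 1 library per condition there is no replicate check and no test, and every interval is a 95% interval for counting error only. Fewer nuclei of a subtype within a class and less RNA per nucleus cannot be told apart in such sums.

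In CA1 pyramidal-like nuclei the genes of the upstream switch had the largest ratios of the 8, with Rheb lower and Tsc2 and Tsc1 higher in the epilepsy library. The kinase and its mTORC1 and mTORC2 partners, and both GATOR1 genes, differed by smaller ratios. All 8 genes had at least 50 UMIs over both libraries, the minimum for being counted. Of these, 5 were higher and 3 lower, and 0 passed 1.5-fold, against 13.6% of the 11031 genes with at least 50 UMIs (8.25% higher and 5.39% lower). The 8 genes had between 523 and 2763 UMIs each, and the share among genes of such counts was not computed. Over the 8 genes the log2 ratios of epilepsy to control had a median of 0.06, and over all genes tested -0.01. Trimmed-mean (TMM) scaling shifted each log2 ratio in this class by -0.07. With it Mtor and Depdc5 fell below 0, 3 genes were higher and 5 lower, and the median was -0.02.

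**Figure D1:**
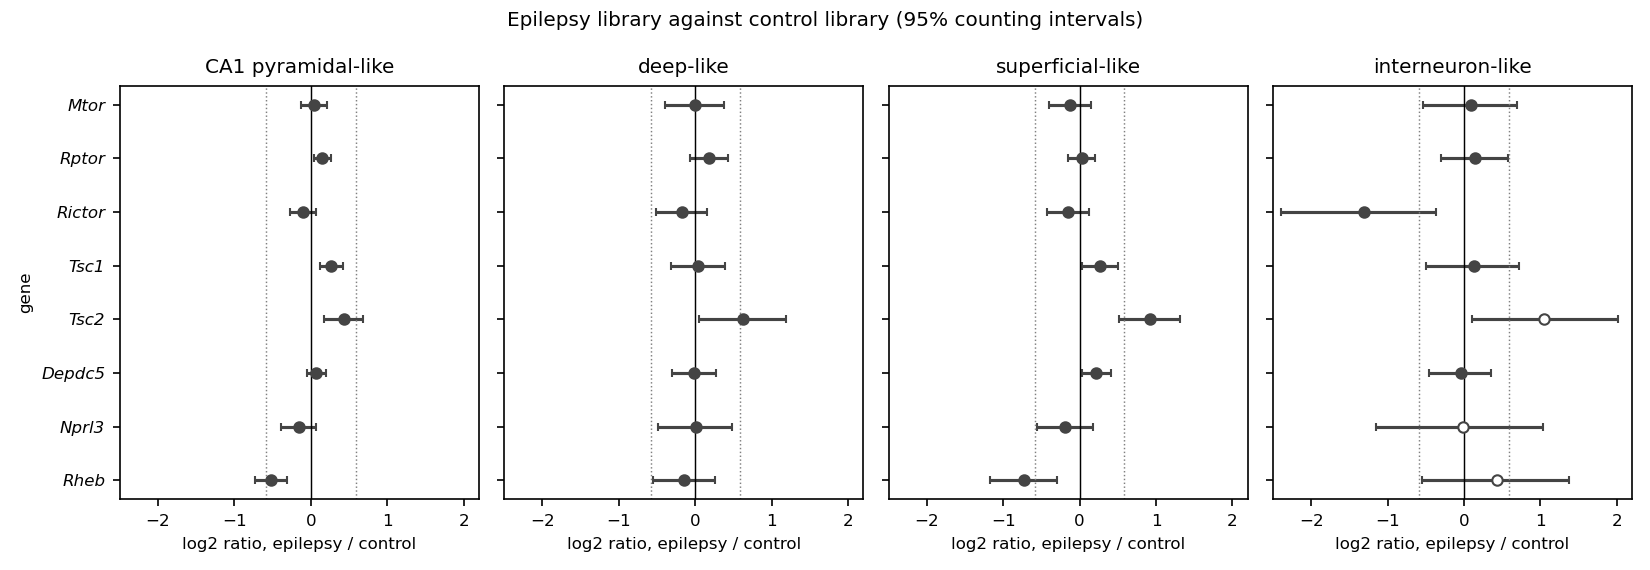
Log2 ratio of the epilepsy to the control library for the 8 genes in CA1 pyramidal-like, deep-like, superficial-like and interneuron-like nuclei. Points are ratios of class CPM, bars their 95% counting intervals, dotted lines 1.5-fold, and open points genes with fewer than 50 UMIs. Tsc2 lies at 0.92 and Rheb at -0.73 in superficial-like nuclei.

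Rheb, the GTPase that activates mTORC1, had 259 UMIs (45.1 CPM) in epilepsy and 623 UMIs (64.6 CPM) in control CA1 pyramidal-like nuclei. The epilepsy level was thus lower by a log2 ratio of -0.52 (interval -0.73 to -0.31). A Rheb UMI was found in 10.5% of epilepsy nuclei (Clopper-Pearson interval 9.27 to 11.9%) and 18.4% of control nuclei (17.0 to 19.9%). The median nucleus of the class had 2611 UMIs in the epilepsy and 3616.5 UMIs in the control library. With each nucleus thinned to 1000 UMIs, which left out 66 epilepsy and 42 control nuclei, the shares were 4.54% in epilepsy and 5.56% in control nuclei. The log2 ratio of levels after thinning was -0.35, nearer to 0 than on all UMIs. Rheb is used by most cell types, so no class here gives a share from free RNA alone.

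Tsc2, whose product tuberin is the GTPase-activating subunit that turns Rheb off, had 233 UMIs (40.6 CPM) in epilepsy and 290 UMIs (30.1 CPM) in control pyramidal-like nuclei. Its log2 ratio was 0.43 (0.18 to 0.68). Tsc1, which encodes the stabilising partner hamartin, had 599 UMIs (104 CPM) in epilepsy and 835 UMIs (86.6 CPM) in control nuclei, a log2 ratio of 0.27 (0.11 to 0.42). Both intervals lay above 0, while that of Rheb lay below it. The share of nuclei with a Tsc2 UMI, 9.49% in epilepsy and 9.83% in control, ran against the CPM and is not read as an order. After thinning it was 4.45% in epilepsy and 3.10% in control nuclei.

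Among the kinase complexes, Rptor, which encodes the mTORC1 scaffold that recruits substrates, had 1100 UMIs (191 CPM) in epilepsy and 1663 UMIs (172 CPM) in control pyramidal-like nuclei, a log2 ratio of 0.15 (0.04 to 0.26). Mtor, the kinase itself, had 475 UMIs (82.7 CPM) in epilepsy and 775 UMIs (80.4 CPM) in control nuclei, a log2 ratio of 0.04 (-0.13 to 0.21). Rictor, the mTORC2 scaffold, had 461 UMIs (80.2 CPM) in epilepsy and 830 UMIs (86.1 CPM) in control nuclei, a log2 ratio of -0.10 (-0.27 to 0.06). The intervals of Mtor and Rictor both held 0.

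Of the GATOR1 genes, Depdc5, which encodes the subunit that contacts the Rag GTPases, had 867 UMIs (151 CPM) in epilepsy and 1386 UMIs (144 CPM) in control pyramidal-like nuclei, a log2 ratio of 0.07 (-0.05 to 0.19). Nprl3, which encodes part of the GTPase-activating module of GATOR1, had 245 UMIs (42.6 CPM) in epilepsy and 459 UMIs (47.6 CPM) in control nuclei, a log2 ratio of -0.16 (-0.39 to 0.07). Neither difference could be separated from 0 at this depth. Ratios over all genes varied with gene length. With genes in 5 equal groups by length, the median log2 ratio was -0.08 in the group of the shortest and 0.07 in that of the longest genes. Mtor, Rptor and Depdc5 belong to the longest group, and Tsc2, Nprl3 and Rheb to the middle one, where the median was -0.04.

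Ratios were also computed within each sublayer. In superficial-like nuclei Tsc2 had 113 UMIs (51.1 CPM) in the epilepsy and 103 UMIs (27.0 CPM) in the control library, a log2 ratio of 0.92 (0.52 to 1.32). Rheb had 61 UMIs (27.6 CPM) in the epilepsy and 174 UMIs (45.6 CPM) in the control library, a log2 ratio of -0.73 (-1.17 to -0.30). These were the 2 genes past 1.5-fold there, 1 higher and 1 lower, against 7.21% of 8591 genes higher by that much, 5.82% lower and 13% in either direction. Tsc1 (log2 ratio 0.26, 0.03 to 0.50) and Depdc5 (0.22, 0.03 to 0.41) were also higher in the epilepsy library, while the intervals of Mtor, Rptor, Rictor and Nprl3 held 0. Both ratios moved with the processing. With pyramidal nuclei split at the median of a marker score in place of clusters, Tsc2 was at 0.33 and Rheb at -0.55, and with nuclei thinned to 1000 UMIs Rheb was at -0.32.

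In deep-like nuclei Tsc2 had 49 UMIs (38.9 CPM) in epilepsy and 60 UMIs (25.3 CPM) in control, a log2 ratio of 0.62 (0.05 to 1.19). It was the 1 gene of the 8 past 1.5-fold, against 5.13% of 6803 genes higher by that much. It stayed under 1.5-fold with at least 500 detected genes per nucleus, with doublets kept, without centring by library, with pathway genes allowed in clustering and with the marker-score split, where its lowest value was 0.35. Rheb had 78 UMIs (62.0 CPM) in epilepsy and 162 UMIs (68.3 CPM) in control, a log2 ratio of -0.14 (-0.55 to 0.26), which became -0.51 with the marker-score split. The intervals of Rheb and the other 6 genes held 0 in deep-like nuclei. The difference between the sublayers' ratios was not tested, and their intervals overlap for each of the 8 genes, Tsc2 and Rheb included.

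In pyramidal nuclei that met neither sublayer rule, Rheb had 120 UMIs (52.8 CPM) in epilepsy and 287 UMIs (83.1 CPM) in control, a log2 ratio of -0.65 (-0.97 to -0.34). It was the 1 gene past 1.5-fold, against 7.05% of 8314 genes lower by that much. This group includes a small cluster led by Btg2 and Fos (24 epilepsy and 109 control nuclei). That cluster held 8 of the epilepsy and 84 of the control Rheb UMIs. In the other clusters of the group Rheb stayed short of 1.5-fold. Its log2 ratios there were -0.56 (led by Ubash3b), -0.45 (led by Tesc) and 0.38 (led by Col22a1). The ratio of the group without the Fos cluster was not computed. Tsc1 (0.40, 0.15 to 0.66) and Rptor (0.25, 0.07 to 0.43) were higher. Tsc2 was at -0.24 (-0.68 to 0.19), and the difference of this ratio from those of the sublayers was not tested.

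**Figure D2:**
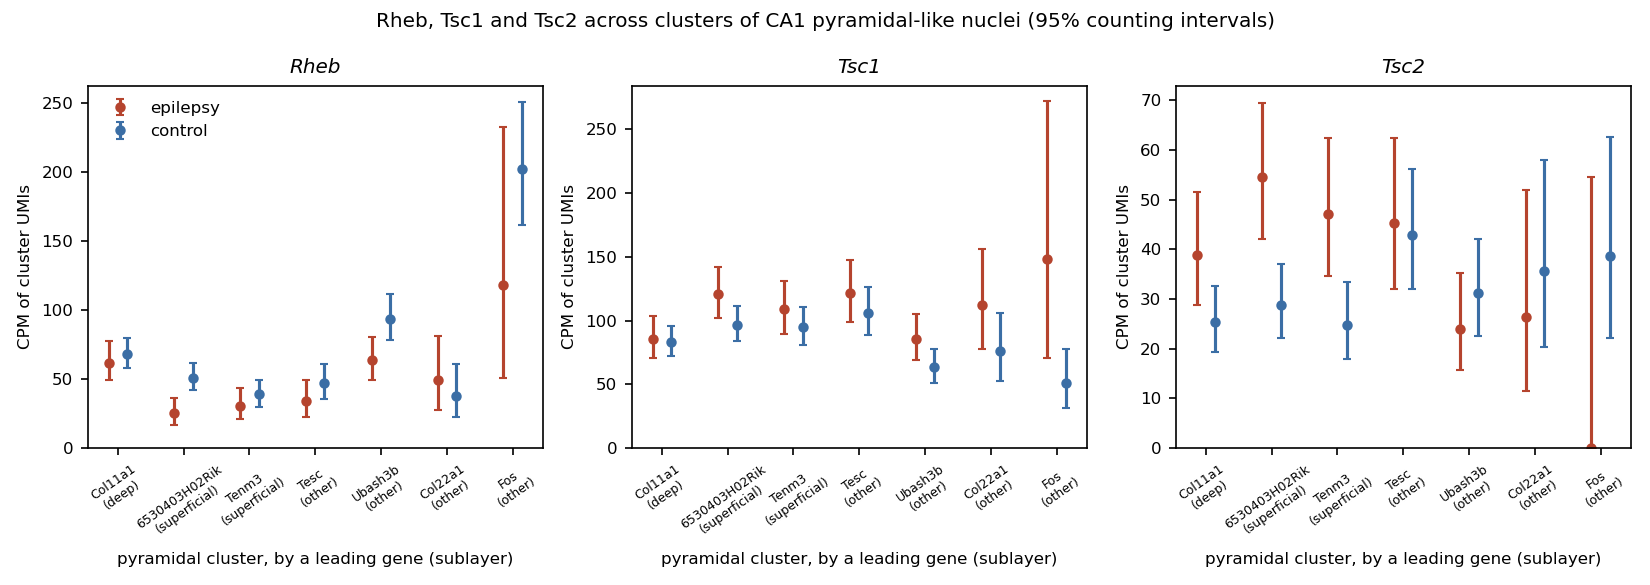
Rheb, Tsc1 and Tsc2 in 7 clusters of CA1 pyramidal-like nuclei, each named by a leading gene with its sublayer in parentheses. Points are CPM of the cluster's UMIs in the epilepsy (left) and control (right) library, with 95% counting intervals. Rheb stands highest in the Fos cluster, at 118 CPM in epilepsy and 203 CPM in control nuclei.

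Both superficial-like clusters had more Tsc2 in the epilepsy library. The one led by 6530403H02Rik and Necab1 had 54.4 CPM in epilepsy and 28.8 CPM in control nuclei, and the one led by Tenm3 and Lingo2 had 47.1 CPM in epilepsy and 24.7 CPM in control nuclei. Rheb was at 25.1 CPM in epilepsy and 51.0 CPM in control nuclei of the Necab1 cluster, a log2 ratio of -1.02 (-1.66 to -0.43). In the Tenm3 cluster it was at 30.4 CPM in epilepsy and 38.8 CPM in control nuclei, a log2 ratio of -0.35 (-1.02 to 0.28). The intervals of the 2 clusters overlap. Rheb was lower in the epilepsy library in 6 of the 7 clusters, the exception being the small cluster led by Col22a1 (49.4 CPM from 15 UMIs in epilepsy and 37.9 CPM from 17 UMIs in control). The interval lay below 0 only in the Necab1 cluster and in the one led by Ubash3b (log2 ratio -0.56, upper bound -0.13). In all other clusters it held 0. Among these was the Fos cluster, with 8 epilepsy UMIs (log2 ratio -0.78, -2.03 to 0.27).

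Rheb was first described in rat brain as a gene induced by seizures and synaptic activity. A pyramidal cluster led by Btg2, Fos and other immediate early genes, with 24 epilepsy and 109 control nuclei, had 118 CPM of Rheb in epilepsy nuclei (8 UMIs) and 203 CPM in control nuclei (84 UMIs). The remaining pyramidal-like nuclei had 44.2 CPM in the epilepsy and 58.4 CPM in the control library. Within the epilepsy library the cluster stood 2.68-fold above the rest (1.14 to 5.36), where 20.6% of genes were at least 1.5-fold higher. Within the control library it stood 3.47-fold above the rest (2.72 to 4.37), where 9.89% of genes were, and 99.6% of 9699 genes had a lower ratio. The clusters were built from other genes of the same nuclei, so this is a description. Tsc1 in the control library was lower in this cluster, at 50.7 CPM, than in the rest, at 88.2 CPM, where 17.5% of genes were lower by at least 1.5-fold. In the epilepsy library it was at 148 CPM from 10 UMIs in the cluster and at 104 CPM in the rest. Tsc2 had 0 UMIs in the cluster's epilepsy nuclei, where 3 UMIs would be 44.4 CPM and the 95% interval reaches 54.6 CPM. It had 38.6 CPM in the cluster's control nuclei.

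The pyramidal ratios were also computed without the Fos cluster and without the other cluster led by activity genes (Ubash3b, Pcsk1 and Per1). Together these held 415 epilepsy and 478 control nuclei. The log2 ratio of Rheb was then -0.40 in place of -0.52, that of Tsc1 0.22 in place of 0.27, and that of Tsc2 0.62 in place of 0.43, which took Tsc2 past 1.5-fold. Oligodendrocyte markers in pyramidal-like nuclei summed to 144 CPM in the epilepsy and 111 CPM in the control library, with 8 of 8 detected in each. Interneuron markers summed to 82.3 CPM in the epilepsy (6 of 7 detected) and 57.0 CPM in the control library (7 of 7). Their part in the pyramidal ratios was not tested.

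**Figure D3:**
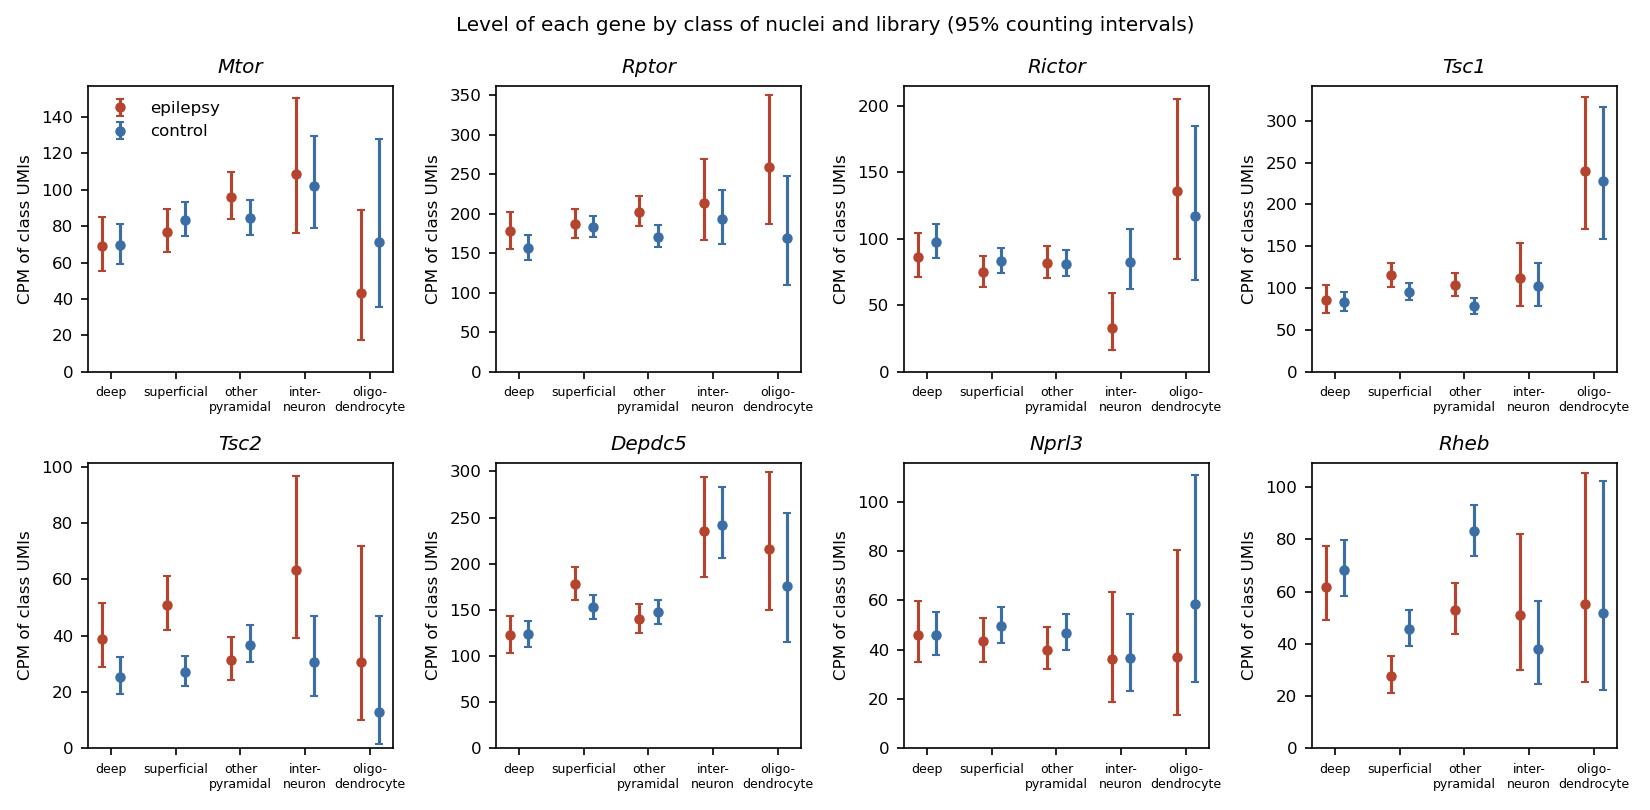
Level of each of the 8 genes in 5 classes of nuclei, in CPM of the class total, with the epilepsy library left of the control library. Bars are 95% counting intervals. Of the 5 classes plotted, Tsc1 is highest in oligodendrocyte-like nuclei, at 240 CPM in epilepsy and 227 CPM in control, and Rheb is lower in superficial-like than in deep-like nuclei in both libraries.

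Across classes within a library, Rheb was higher in deep-like than in superficial-like nuclei, by a log2 ratio of 1.17 (0.67 to 1.68) in the epilepsy and 0.58 (0.26 to 0.90) in the control library. The first is past 1.5-fold and the second just short of it. At least 1.5-fold higher levels in deep-like nuclei were found for 7.08% of genes in the epilepsy and 5.72% in the control library. Depdc5 ran the other way, with 122 CPM in deep-like and 178 CPM in superficial-like nuclei of the epilepsy library, and 123 CPM in deep-like and 153 CPM in superficial-like nuclei of the control library. The log2 ratio of deep-like to superficial-like nuclei was -0.54 (-0.82 to -0.27) in the epilepsy and -0.31 (-0.51 to -0.10) in the control library. Of all genes tested, 16.2% in the epilepsy and 22.8% in the control library had a still lower ratio. Tsc1 followed in the epilepsy library (-0.43, -0.76 to -0.10), and its interval held 0 in the control library (-0.20, -0.46 to 0.05). Rptor was lower in deep-like nuclei of the control library (-0.23, -0.41 to -0.04), and its interval held 0 in the epilepsy library (-0.08, -0.32 to 0.16).

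Of the 6 classes with at least 30 nuclei in each library, Depdc5 was highest in interneuron-like nuclei in both, though their interval overlapped those of oligodendrocyte-like and astrocyte-like nuclei and, in the epilepsy library, that of superficial-like nuclei. Depdc5 was at 235 CPM (78 UMIs) in epilepsy interneuron-like nuclei against 151 CPM in pyramidal-like ones. In the control library it was at 242 CPM (159 UMIs) against 144 CPM. These levels are 1.56-fold (1.22 to 1.97) higher in the epilepsy and 1.69-fold (1.42 to 1.99) higher in the control library, in a comparison where 24.3% of genes in the epilepsy and 24.7% in the control library were at least 1.5-fold higher.

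Rictor, the mTORC2 scaffold, was lower in epilepsy interneuron-like nuclei. It had 11 UMIs (33.2 CPM) in epilepsy and 54 UMIs (82.3 CPM) in control interneuron-like nuclei, a log2 ratio of -1.31 (-2.40 to -0.36). This was the 1 gene past 1.5-fold of the 5 with at least 50 UMIs there, against 7.29% of 3374 genes lower by that much. The ratio stayed between -1.46 and -1.15 over 10 alternatives. Mtor, Rptor, Tsc1 and Depdc5 had ratios between -0.04 and 0.14, with intervals that held 0. Of the genes below 50 UMIs, Tsc2 had 21 UMIs (63.3 CPM) in epilepsy and 20 UMIs (30.5 CPM) in control, a log2 ratio of 1.05 (0.10 to 2.01). Rheb had 17 UMIs (51.2 CPM) in epilepsy and 25 UMIs (38.1 CPM) in control, a log2 ratio of 0.43 (-0.55 to 1.37), with an interval that held 0. Nprl3 had 12 UMIs (36.2 CPM) in epilepsy and 24 UMIs (36.6 CPM) in control, a log2 ratio of -0.02 (-1.15 to 1.04). CA1 pyramidal markers in interneuron-like nuclei summed to 763 CPM in epilepsy and 747 CPM in control, with 8 of 8 detected. In pyramidal-like nuclei they summed to 3126 CPM in epilepsy and 2987 CPM in control. The class median was 2149.5 UMIs per nucleus in the epilepsy and 3295.5 UMIs in the control library, and the part of these in the Rictor value was not tested.

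Of the 6 classes with at least 30 nuclei in each library, Tsc1 was highest in oligodendrocyte-like nuclei in both, though the interval overlapped that of the few astrocyte-like nuclei (108 CPM from 3 UMIs in epilepsy and 167 CPM from 8 UMIs in control). It had 39 UMIs (240 CPM) in epilepsy and 35 UMIs (227 CPM) in control nuclei of the class, where CA1 pyramidal markers summed to 727 CPM in epilepsy and 643 CPM in control. Set against pyramidal-like nuclei, this was 2.30-fold (1.62 to 3.19) higher in the epilepsy and 2.63-fold (1.82 to 3.68) higher in the control library. At least 1.5-fold higher levels were found for 30.7% of genes in the epilepsy and 32.8% in the control library. A Tsc1 UMI was found in 14.3% of epilepsy and 19.0% of control oligodendrocyte-like nuclei, whose median was 595 UMIs in epilepsy and 794.5 UMIs in control. In the deeper pyramidal-like nuclei the shares were 23.0% in epilepsy and 25.3% in control. These shares ran against the CPM and are not read as an order. Between the libraries, 3 genes had at least 50 UMIs in oligodendrocyte-like nuclei. Of these Rptor alone passed 1.5-fold, at 0.62 (-0.12 to 1.38), against 6.74% of 1098 genes higher by that much. Tsc1 was at 0.08 (-0.62 to 0.78) and Depdc5 at 0.30 (-0.47 to 1.08). All 3 intervals held 0. With at least 500 detected genes per nucleus, Tsc1 was at -0.65 and Depdc5 at -0.95.

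The pathway around the 8 genes was examined by lists of its complexes in pyramidal-like nuclei, where 48.7% of all genes tested were higher and 51.3% lower in the epilepsy library. Of the 7 list medians given here and in the plot by list, 5 lay above 0, and 0 with TMM scaling. Of 10 measured genes of the kinase complexes, 5 were higher and 5 lower in the epilepsy library, with a median log2 ratio of 0.01. Of the 5 genes of the TSC complex and Rheb, 4 were higher and 1, Rheb, lower. Tbc1d7, the third TSC subunit, and Rhebl1, the Rheb paralog, were at 0.02 (-0.79 to 0.81) and 0.00 (-0.69 to 0.67). GATOR1 with its KICSTOR anchor counted 4 higher and 2 lower of 6.

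**Figure D4:**
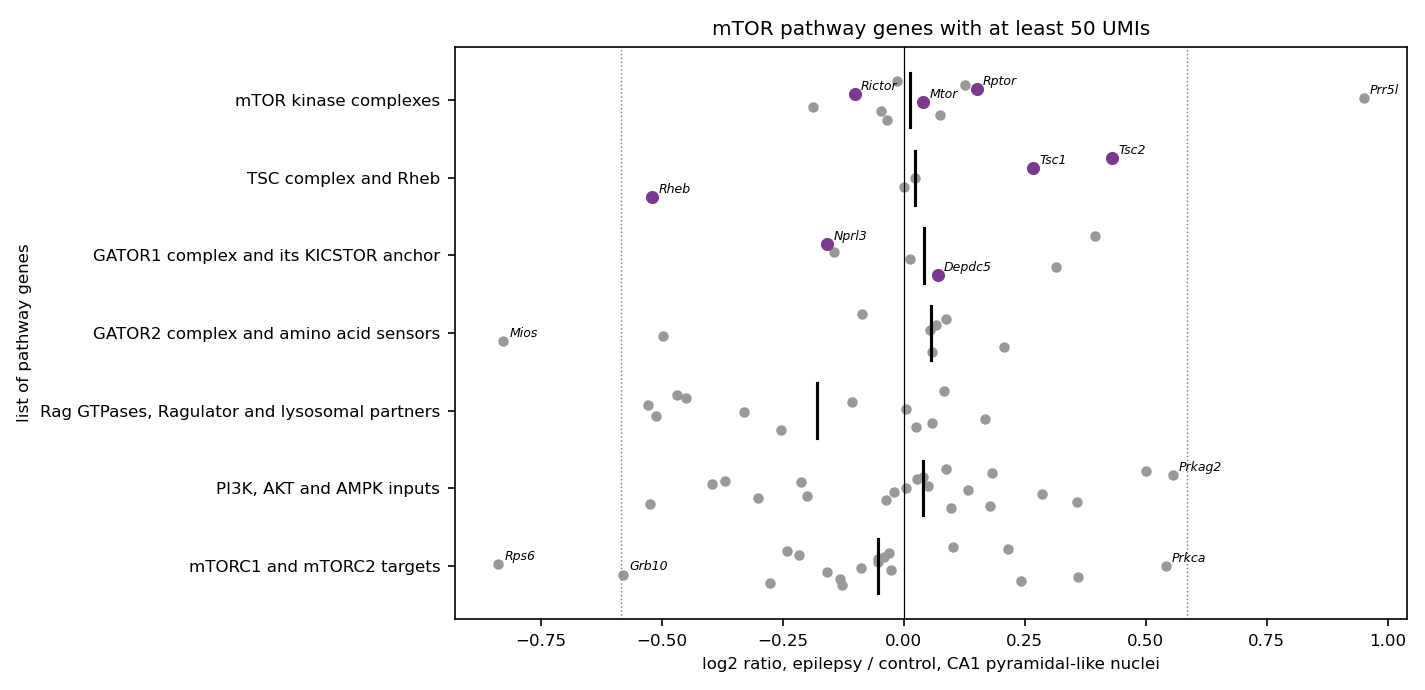
Log2 ratio of the epilepsy to the control library in CA1 pyramidal-like nuclei for the mTOR pathway genes with at least 50 UMIs, by list. Purple points are the 8 genes, grey points other pathway genes, black bars list medians and dotted lines 1.5-fold. List medians lie between -0.18 and 0.06, and Rheb, Tsc1 and Tsc2 lie on opposite sides of 0.

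Of 8 measured genes of GATOR2 and the amino acid sensors, 5 were higher and 3 lower. Mios, a GATOR2 subunit, had 91 UMIs (15.8 CPM) in epilepsy and 271 UMIs (28.1 CPM) in control, a log2 ratio of -0.83 (-1.19 to -0.48). It was the 1 gene of this list past 1.5-fold, against 5.39% of all genes lower by that much and 13.6% in either direction. Sec13, shared by GATOR2 and the nuclear pore, was at -0.50 (-0.97 to -0.04), and Castor2, of the arginine sensor family, at 0.21 (0.02 to 0.40). Rag GTPases, Ragulator and lysosomal partners had the lowest median, -0.18, with 5 higher and 7 lower of 12. Rragb and Rragc, which encode Rag GTPases, were at -0.45 (-0.71 to -0.19) and -0.47 (-0.91 to -0.04). With a minimum of 20 or 200 UMIs per gene in place of 50, or with TMM scaling, the median of this list ranged from -0.25 to 0.00, the value at 200 UMIs.

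Among PI3K, AKT and AMPK inputs, 13 of 21 genes were higher and 8 lower. Prkag2, a regulatory AMPK subunit, was at 0.56 (0.50 to 0.61), the receptor gene Igf1r at 0.36 (0.23 to 0.48) and Pdpk1, which encodes the AKT-activating kinase PDK1, at 0.29 (0.14 to 0.43). Of 19 genes of mTORC1 and mTORC2 targets, 5 were higher and 14 lower, with a median of -0.05 against -0.01 over all genes tested. Prkca, a protein kinase C phosphorylated by mTORC2, was at 0.54 (0.50 to 0.58) and Eif4ebp2, the main brain form of the translation repressor 4E-BP, at 0.36 (0.08 to 0.64). Rps6, the ribosomal protein phosphorylated downstream of mTORC1, had 18 UMIs (3.13 CPM) in epilepsy and 54 UMIs (5.60 CPM) in control (-0.84, -1.70 to -0.05). It was the 1 target of 19 past 1.5-fold, a share near the 5.39% of all genes that were lower by that much. The adaptor gene Grb10 was at -0.58 (-1.02 to -0.15) and Eef2k, a kinase of the translation factor eEF2, at -0.28 (-0.55 to -0.01).

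Prr5l, an mTORC2-associated gene, had the highest ratio of the kinase complexes in pyramidal-like nuclei, with 13.2 CPM in epilepsy and 6.85 CPM in control (0.95, 0.46 to 1.45). It is also the leading gene of the oligodendrocyte-like cluster, where it stood at 3136 CPM in epilepsy and 3372 CPM in control nuclei. The part of oligodendrocyte RNA in its pyramidal value was not tested.

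The genes whose levels followed each of the 8 most closely were sought by Pearson r of log2(CPM + 1) over 12 points, the 2 libraries in each of 6 classes, among 4897 genes. They were Crtc3 and Fhit for Mtor (r = 0.96 and 0.95), Ssbp3 and Mbtd1 for Rptor (0.91 and 0.86), and Snrnp40 and Pcmt1 for Rictor (0.93 and 0.90). For Tsc1 they were Itch and Capn15 (0.96 and 0.96), for Tsc2 Odf2 and A830082K12Rik (0.86 and 0.84), and for Depdc5 Synpr and Apba1 (0.94 and 0.93). Nprl3 was closest to Erp44 and Zfp263 (0.99 and 0.99), and Rheb to Ndfip2 and Smad3 (0.84 and 0.82). The points share libraries and depth. Each is 1 class sum, and the astrocyte-like sums, from 31 epilepsy and 30 control nuclei, hold between 0 and 10 UMIs of each of the 8 genes. The 0 is that of Nprl3 in the control library, and the part of this point in the r values of Nprl3 was not tested.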

How the data were processed

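The files hold raw UMI counts per gene and nucleus, deposited by the authors without normalization, for 1 epilepsy and 1 control library. The build GRCm38 (mm10) and the tools Cell Ranger 2.2.0 and FastQC are named in the submitters' processing notes. Intron and strand settings and the annotation are not given in the sources used here. Nuclei needed 200 detected genes and under 5% mitochondrial UMIs, which removed 0. Scrublet (scanpy 1.11.5) marked 3 epilepsy and 4 control nuclei, under 0.5% of each library, so the 3% with the highest scores were removed (92 epilepsy and 110 control nuclei). Clusters came from 2000 variable genes without the pathway genes, centred within each library, 30 components, 20 neighbours and leidenalg 0.10.2 (resolution 1), and sublayers from a second clustering of the pyramidal nuclei.

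A class needed 3 markers at 20 CPM and 2-fold. Clusters of glia with at least 0.5 of the pyramidal marker level, and a pyramidal cluster led by markers of other classes, were set aside as mixed. These naming rules were set after clusters had been seen. The members and lists were chosen with earlier results of these data known. From each list, up to 4 further genes with at least 100 UMIs are named, those whose interval bound lies farthest from 0; Tbc1d7, Rhebl1 and Rps6 were added after their values were seen. Some genes that this rule names are not reported here.

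UMIs were summed per class and library. Ratios (exact binomial intervals) were given for classes with 30 nuclei in each library, and genes were counted from 50 UMIs. The interval method was tested on simulated class sums with counting error alone. That simulation held no spread between nuclei or mice and cannot speak to either. TMM factors came from edgeR 4.0.16. Other alternatives changed filters, clustering, scaling, weights and depth. Of the genes, 30330 of 30431 identifiers matched GENCODE M21, which gave positions.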

Additional observations from a re-analysis of the deposited data

How the results depend on the processing

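Over 488 alternative values, 463 stayed within the counting interval or count of the reported one, 25 moved and 0 reversed a direction whose interval lay beyond 0. In CA1 pyramidal-like nuclei the log2 ratio of Rheb ranged from -0.59 to -0.35, that of Tsc2 from 0.36 to 0.62 and that of Tsc1 from 0.20 to 0.29. The number of the 8 genes past 1.5-fold there, 0, became 1 with TMM factors (Rheb) and 1 without the activity-led clusters (Tsc2). In deep-like nuclei it was 0 in place of 1 with doublets kept, 500 detected genes, no centring by library, pathway genes allowed in clustering or the marker-score split. In superficial-like nuclei it was 1 in place of 2 with 500 detected genes, Leiden resolution 0.5, equal weight per nucleus or thinning to 1000 UMIs, and 0 with the marker-score split. In oligodendrocyte-like nuclei it was 3 in place of 1 with 500 detected genes and 0 without centring, and the median of the counted genes was -0.65 in place of 0.30 with 500 detected genes. The cause was not tested. Resolution 0.5 gave no separate oligodendrocyte-like class, so that value is missing. The alternatives that left out the activity-led clusters or the low-UMI cluster, or kept the mixed pyramidal cluster, were chosen after seeing the data. No paired analysis was possible because each condition has 1 library. Depth limits the smaller classes, where a gene often had fewer than 50 UMIs.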

Other observations

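Oligodendrocyte precursor-like nuclei (38 epilepsy and 24 control) held 11 UMIs of Rictor in the epilepsy library (355 CPM, interval 177 to 636) and 10 UMIs in the control library (382 CPM, 183 to 702). These UMIs came from 7 epilepsy and 6 control nuclei. Set against pyramidal-like nuclei of the same library, the log2 ratios were 2.15 (1.13 to 3.00) in the epilepsy and 2.15 (1.08 to 3.04) in the control library. Of all genes tested, 93.2% in the epilepsy and 90.5% in the control library had a lower ratio. Oligodendrocyte-like nuclei had 136 CPM of Rictor in the epilepsy and 117 CPM in the control library. The precursor-like class fell under 30 nuclei in the control library, so no ratio between the libraries is given.

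Dentate granule-like nuclei, which numbered 14 in the epilepsy and 154 in the control library, had 95.6 CPM of Depdc5 in the control library from 29 UMIs, against 144 CPM in pyramidal-like nuclei. Nprl3 was at 75.8 CPM (23 UMIs) there, against 47.6 CPM. The log2 ratio to pyramidal-like nuclei was -0.59 (-1.17 to -0.06) for Depdc5, and 22.6% of genes had a lower ratio. For Nprl3 it was 0.67 (-0.0007 to 1.27), an interval that held 0, and 78.5% of genes had a lower ratio. The epilepsy dentate granule-like nuclei held between 0 and 4 UMIs of each of the 8 genes.

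A cluster with both microglial and pyramidal markers (38 epilepsy and 36 control nuclei) held 6 UMIs of Rheb in the epilepsy (108 CPM, 39.5 to 234) and 14 UMIs in the control library (140 CPM, 76.3 to 234). Rptor had 19 UMIs there in the epilepsy (341 CPM, 205 to 533) and 21 UMIs in the control library (209 CPM, 130 to 320). The median nucleus of this cluster had 790.5 UMIs in the epilepsy and 3002 UMIs in the control library.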
